A study of Mus musculus with 12 samples.

Results

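Branched-chain amino acid (BCAA) catabolism was followed through 10 of the 22276 gene symbols measured by RNA-seq, taken by symbol as Bcat2, Bckdha, Bckdhb, Dbt, Ppm1k, Ivd, Mccc1, Mccc2, Hibadh and Hibch. All 10 had a value above 1 FPKM in every library, FPKM being fragments counted per length of transcript and scaled to the fragments mapped in the library. Male C57BL/6J mice were sampled at 17 wk of age in 3 groups. NCD-veh mice ate a normal chow diet and received vehicle. HFD-veh mice ate a high-fat diet from 8 wk of age and received vehicle, and HFD-ncls mice ate the same high-fat diet and received narciclasine (ncls), a compound made by plants of the daffodil family, from 10 wk of age. Both were given weekly by mouth, ncls at a dose of 1 mg/kg. White (WAT) and brown (BAT) adipose tissue, liver and muscle (quadriceps) each gave 1 library per group, 12 in all. No library has a replicate, so every value below describes single libraries. No test between groups within an organ was possible, and a fit of diet or treatment shared across the organs was not run. Where 3 values stand together, they are in the order NCD-veh, HFD-veh, HFD-ncls. The number of mice behind a library and the depot of the WAT are not given in the sources used here.

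The BCAAs leucine, isoleucine and valine are degraded in mitochondria. The aminotransferase BCAT2 removes the amino group, and the branched-chain ketoacid dehydrogenase (BCKDH) complex then commits the carbon skeleton to oxidation. The phosphatase PPM1K switches that complex on and the kinase BCKDK switches it off by phosphorylation, after which separate enzymes take the leucine, isoleucine and valine products towards acetyl-CoA, acetoacetate and propionyl-CoA. Adipocytes, muscle and liver divide this work, the liver being known for little BCAT2 and much BCKDH.

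The promoters below belong to the members whose WAT levels differed most and least between HFD-veh and NCD-veh, so that the largest differences (Ppm1k and Ivd) can be read beside the smallest (Mccc1). Each is the stretch before the gene's outermost start in the RefSeq GRCm38.p6 promoter table, placed by exact match on mm9 and written 5′ to 3′ on the gene's strand, with capitals marking a CCAAT box or its reverse complement ATTGG.
Ppm1k, chr6:57485547-57485731 (minus strand): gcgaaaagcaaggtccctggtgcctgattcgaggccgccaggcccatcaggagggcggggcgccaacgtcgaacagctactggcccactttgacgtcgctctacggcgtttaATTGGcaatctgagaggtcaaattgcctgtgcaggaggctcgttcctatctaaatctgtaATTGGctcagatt
Ivd, chr2:118687480-118687694 (plus strand): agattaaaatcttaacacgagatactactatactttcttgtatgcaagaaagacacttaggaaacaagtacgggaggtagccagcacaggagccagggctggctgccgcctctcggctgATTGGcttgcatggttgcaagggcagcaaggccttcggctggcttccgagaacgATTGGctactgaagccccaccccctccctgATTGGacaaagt
Mccc1, chr3:35899617-35899850 (minus strand): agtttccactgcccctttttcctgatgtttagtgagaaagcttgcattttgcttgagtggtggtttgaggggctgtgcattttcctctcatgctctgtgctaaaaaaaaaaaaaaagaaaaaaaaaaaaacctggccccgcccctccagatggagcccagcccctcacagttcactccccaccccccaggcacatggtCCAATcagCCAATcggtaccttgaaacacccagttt
The Ppm1k and Mccc1 stretches hold 2 such boxes each and the Ivd stretch holds 3, so the genes at both ends of the range of WAT differences carry the box. Of the 9 members matched in the table, 6 had CCAAT on either strand within the 300 bases around a start, against 37.4% of 32851 promoter windows of that length. A member was counted if any of its windows held the motif, and Bcat2 and Bckdhb had 2 windows each. The member counts and the shares of single windows are therefore unlike measures. GGGCGG was found for 5 of 9 members (35.7% of all windows), AGGTCA for 3 (16.3%) and CCACCC for 4 (31.5%). TATAAA was found for 0 of 9 members and in 13.6% of all windows. These letters are matches only and say nothing of a factor's binding. Dbt was not matched in the table.

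Summed marker levels were highest in the labelled organs. All 8 adipocyte markers reached 1 FPKM in every WAT and BAT library, and also in every muscle library. Their sum was at least 10818 FPKM in WAT and BAT and at most 455 FPKM in muscle and liver. In liver 9 of 10 liver markers reached 1 FPKM, and in muscle 9 of 10 muscle markers did. The remaining marker, Alb in liver and Myh4 in muscle, had no value there. Reaching 1 FPKM does not separate the organs. All 10 liver markers did so in HFD-veh muscle, and all 10 muscle markers in every BAT library and in HFD-veh liver. The liver markers summed to at least 37720 FPKM in liver and at most 505 FPKM elsewhere. The muscle markers summed to at least 100186 FPKM in muscle and at most 2060 FPKM elsewhere. The summed level of 6 brown fat markers was 8225 to 10118 FPKM in BAT and 41.2 to 85.2 FPKM in WAT. In muscle that sum was 1728 to 1866 FPKM, mostly from Cox7a1 and Cox8b. RNA of another organ was seen in some libraries. Only liver RNA in muscle and WAT, and muscle RNA in BAT and liver, was weighed against the member levels. The largest part such RNA could account for was 8.60% of the Ppm1k level in HFD-veh muscle, from a liver share of 0.665%. In the other libraries looked at it could account for at most 1.12% of any member's level. Fat RNA in muscle was not weighed in this way. Relative depth read from the low FPKM values ranged from 0.708 to 1, or about 18200000 to 25700000 fragments. Ppm1k had the fewest fragments among the members, about 163 in HFD-veh muscle and about 412, 173 and 175 in the WAT libraries, so its ratios were the least precise.

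In WAT, all 10 members were lower in HFD-veh than in NCD-veh mice, by 21.5% for Mccc1 to 56.8% for Ppm1k. Among the 12208 genes compared, 47.3% were lower by any amount. A difference of more than 1.4-fold was reached by 7 members, all of them lower, against 13% of genes, and a difference of more than 2-fold by Ppm1k alone, against 3.87% of genes. The median log2 difference over the members was -0.55, and over all genes it was 0.03. In bulk tissue a smaller number of cells of a type and less RNA per cell cannot be told apart. Log2 differences here and below are on log2(FPKM + 0.1) and cover genes with at least 1 FPKM in at least 1 of both libraries compared.

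**Figure D1:**
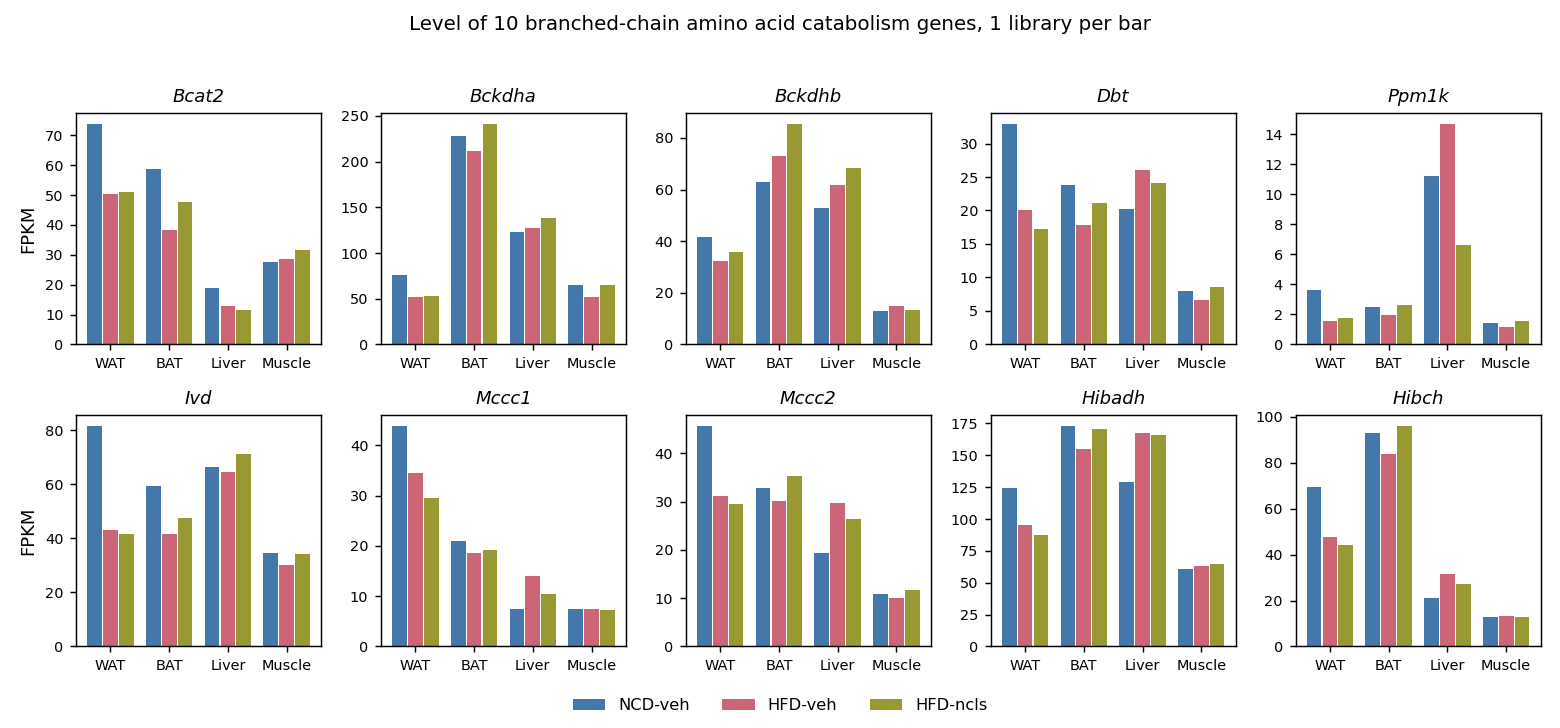
Levels of the 10 members (FPKM, vertical axis) in the 12 libraries, grouped by organ, with 1 bar for each library, coloured by group. In WAT the NCD-veh bar is the highest for every member, from 3.60 FPKM for Ppm1k to 125 FPKM for Hibadh.

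Bcat2 (mm9 chr7:52825523-52845080, plus strand), the mitochondrial aminotransferase that opens the pathway, stood at 73.9 FPKM in NCD-veh WAT, 50.3 in HFD-veh WAT and 50.9 in HFD-ncls WAT. The NCD-veh library stood above both high-fat libraries, which differed by 0.02 on the log2 scale. In BAT it measured 58.7, 38.3 and 47.6 FPKM in the same order, so the lower level under the high-fat diet (log2 difference -0.61) was seen in both fat organs. Muscle held 27.6, 28.6 and 31.5 FPKM, a log2 difference of 0.05 between HFD-veh and NCD-veh. Liver gave the lowest levels of the 4 organs, 18.9, 12.8 and 11.5 FPKM. The liver values are uncertain, because 622 of the 3899 exon bases of Bcat2 lie under exons of a long noncoding RNA on the other strand, 0610005C13Rik, which measured 190, 138 and 156 FPKM in the liver libraries and at most 1.18 FPKM elsewhere. Whether the counting used strand is not given in the sources used here, so reads of the 2 genes cannot be told apart there.

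The BCKDH complex is built on an E1 enzyme of alpha and beta chains (Bckdha and Bckdhb) and an E2 core (Dbt). Bckdha (chr7:26414871-26443780, minus strand) measured 76.3 FPKM in NCD-veh WAT, 51.8 in HFD-veh WAT and 53.3 in HFD-ncls WAT. Its BAT levels of 228, 211 and 241 FPKM were the highest of any organ, and its HFD-veh to NCD-veh difference there was -0.11 against -0.56 in WAT. Liver held 123, 128 and 138 FPKM. Muscle had 65.1, 52.3 and 64.6 FPKM, with HFD-veh the lowest of the 3 libraries. Muscle and WAT levels of Bckdha overlapped, while BAT and liver stood apart from them and from each other.

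Bckdhb (chr9:83818757-84017846, plus strand), the partner chain of E1, was at 41.8, 32.3 and 35.7 FPKM in WAT. In the other 3 organs HFD-veh was instead higher than NCD-veh, with 62.9, 73.0 and 85.5 FPKM in BAT, 52.9, 61.7 and 68.2 FPKM in liver and 13.0, 15.0 and 13.4 FPKM in muscle. The log2 differences between HFD-veh and NCD-veh were -0.37 in WAT, 0.21 in BAT, 0.22 in liver and 0.20 in muscle, none of them past 1.4-fold. Bckdhb was thus the member whose direction in WAT differed from that in each of the other organs.

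Dbt (chr3:116215988-116252894, plus strand), which carries the transacylase core, measured 32.9 FPKM in NCD-veh WAT, 20.1 in HFD-veh WAT and 17.2 in HFD-ncls WAT. The HFD-veh level was 39.0% lower than the NCD-veh level, the largest difference among the subunits of the complex. BAT gave 23.8, 17.9 and 21.1 FPKM, liver 20.2, 26.0 and 24.0 FPKM and muscle 7.91, 6.65 and 8.60 FPKM. Liver was the organ in which Dbt was higher under HFD-veh, with a log2 difference of 0.36.

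Ppm1k (chr6:57456496-57485420, minus strand), the phosphatase that activates the complex, was the least abundant member in every library of fat and muscle. It stood at 3.60 FPKM in NCD-veh WAT, 1.56 in HFD-veh WAT and 1.73 in HFD-ncls WAT. The log2 difference between HFD-veh and NCD-veh of -1.16 was the largest of any member in any organ. BAT gave 2.47, 1.93 and 2.60 FPKM and muscle 1.42, 1.14 and 1.57 FPKM, with HFD-veh the lowest library in both. Subtracting the liver share from HFD-veh muscle moved the muscle log2 difference from -0.30 to -0.42. In liver, where Ppm1k was highest, the levels were 11.2, 14.7 and 6.63 FPKM, and the HFD-ncls level was 54.9% below the HFD-veh level.

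The kinase Bckdk, which opposes Ppm1k, differed less than Ppm1k between groups within each organ on the log2 scale. Its levels were 21.1, 18.1 and 17.7 FPKM in WAT and 25.9, 27.9 and 27.1 FPKM in BAT. Muscle held the most, 50.9, 50.2 and 51.1 FPKM, and liver the least, 3.68, 4.44 and 4.32 FPKM. The ratio of the Bckdk level to the Ppm1k level was 5.87 in NCD-veh WAT, 11.6 in HFD-veh WAT and 10.2 in HFD-ncls WAT. In BAT it was 10.5, 14.4 and 10.4, in muscle 35.8, 44.2 and 32.6, and in liver 0.328, 0.302 and 0.652. Kinase transcripts therefore exceeded phosphatase transcripts in each library of fat and muscle, and the reverse held in each liver library. Transcript levels do not give the activity of either enzyme.

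**Figure D2:**
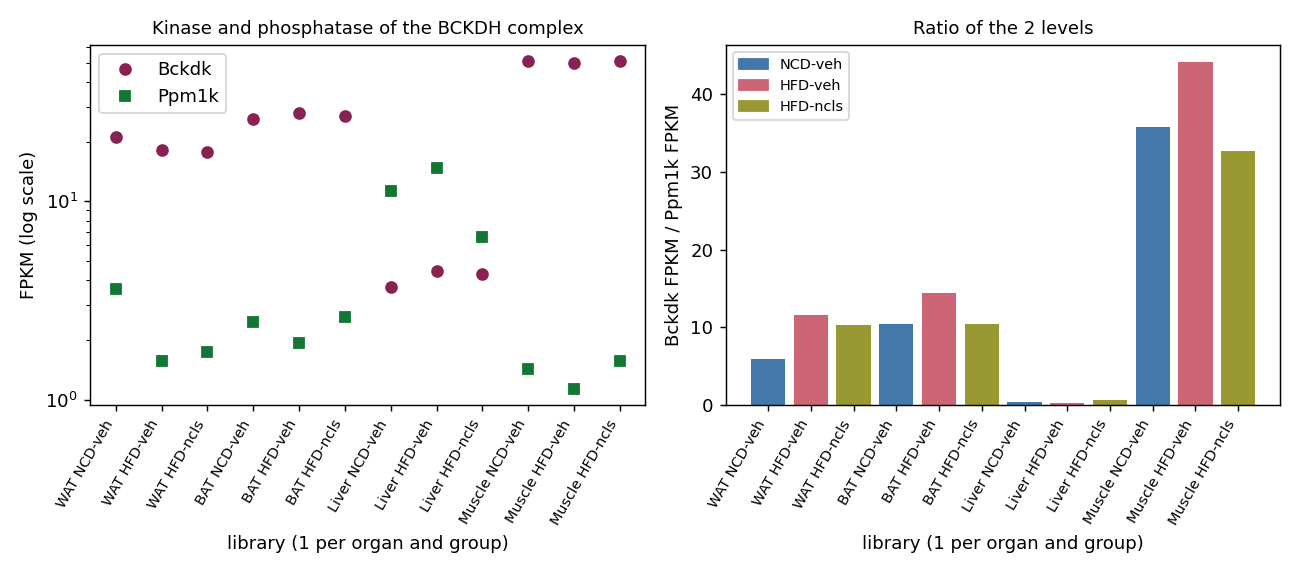
Levels of the kinase Bckdk and the phosphatase Ppm1k (left, FPKM on a log axis) and the ratio of the 2 levels (right, bars from 0) in the 12 libraries by organ. The ratio is highest in muscle, at 32.6 to 44.2, and lowest in liver, at 0.302 to 0.652.

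Leucine is taken further by isovaleryl-CoA dehydrogenase (Ivd) and by methylcrotonoyl-CoA carboxylase, whose biotin-carrying and catalytic chains are encoded by Mccc1 and Mccc2. Ivd (chr2:118687690-118708645, plus strand) measured 81.7 FPKM in NCD-veh WAT, 43.0 in HFD-veh WAT and 41.8 in HFD-ncls WAT. The HFD-veh level was 47.4% below the NCD-veh level, second to Ppm1k. In BAT the levels were 59.3, 41.5 and 47.7 FPKM, with a log2 difference of -0.51. Liver (66.3, 64.4 and 71.3 FPKM) and muscle (34.5, 30.0 and 34.1 FPKM) differed less, by -0.04 and -0.20. Among the leucine enzymes, Ivd was thus lower past 1.4-fold in both fat organs and not in liver or muscle.

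Mccc1 (chr3:35858234-35899600, minus strand) stood at 43.9, 34.4 and 29.4 FPKM in WAT, where it was most abundant. Its liver levels ran the other way, at 7.38, 14.1 and 10.5 FPKM, so HFD-veh was 90.9% higher than NCD-veh. BAT (21.0, 18.6 and 19.2 FPKM) and muscle (7.46, 7.41 and 7.21 FPKM) varied little. Its partner Mccc2 (chr13:100718488-100785594, minus strand) showed the same contrast of organs, with 45.7, 31.2 and 29.6 FPKM in WAT and 19.5, 29.8 and 26.4 FPKM in liver. Mccc2 measured 32.9, 30.0 and 35.3 FPKM in BAT and 10.9, 10.1 and 11.6 FPKM in muscle. Both carboxylase chains were thus lower in HFD-veh than NCD-veh WAT and higher in HFD-veh than NCD-veh liver.

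Valine is taken further by 3-hydroxyisobutyryl-CoA hydrolase (Hibch) and 3-hydroxyisobutyrate dehydrogenase (Hibadh). Hibch (chr1:52901857-52977830, plus strand) measured 69.2, 47.6 and 44.2 FPKM in WAT and 21.2, 31.5 and 27.1 FPKM in liver. HFD-veh was 31.3% lower than NCD-veh in WAT and 48.2% higher in liver. BAT held 92.8, 83.6 and 96.0 FPKM and muscle 12.7, 13.2 and 12.7 FPKM. Hibch was the member whose levels did not overlap between any organs next to each other in order, from BAT through WAT and liver to muscle.

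Hibadh (chr6:52496222-52590383, minus strand), among the most abundant members, stood at 125, 95.2 and 87.6 FPKM in WAT and 173, 155 and 171 FPKM in BAT. Liver gave 129, 168 and 166 FPKM and muscle 60.6, 63.2 and 64.8 FPKM. Its log2 differences between HFD-veh and NCD-veh were -0.39 in WAT, -0.16 in BAT, 0.38 in liver and 0.06 in muscle, none past 1.4-fold.

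Ranked by the median of each organ's 3 libraries, BAT was highest for 5 members, liver for 3 and WAT for 2. Muscle was lowest for 8 members, WAT for Bckdha and liver for Bcat2. Summed over the members, the level was 594, 407 and 391 FPKM in WAT, and 755, 671 and 767 FPKM in BAT. Liver summed to 469, 550 and 550 FPKM and muscle to 241, 228 and 250 FPKM. WAT was thus the organ with the widest spread of the sum across groups.

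The diet comparison was then set side by side for the 4 organs. In BAT, 9 members were lower and 1 higher in HFD-veh than NCD-veh mice, where 55.3% of the 10443 genes compared were lower by any amount. The members past 1.4-fold were Bcat2 and Ivd, both lower, against 8.24% of genes lower by that fold. The BAT member median was -0.16, and that of all genes -0.04. Relative to the median of the 8 adipocyte markers in BAT, which was -0.20, the member median became 0.041 and 4 members (Bcat2, Dbt, Ppm1k and Ivd) were lower instead of 9. The share of all genes lower on that scale was not computed. In liver, 8 members were higher, where 54% of 10016 genes were higher by any amount, with Mccc1, Mccc2 and Hibch past 1.4-fold, against 13.3% of genes higher by that fold, and Bcat2 was lower past it, against 10.5% of genes. The liver member median was 0.37, and that of all genes 0.04. In muscle, 0 members passed 1.4-fold in either direction, where 5.51% of 9585 genes were lower and 7.74% were higher, and the median was -0.06 against 0.03 for all genes. The lower levels of most members in WAT therefore stood beside smaller differences in BAT and muscle and mostly opposite ones in liver.

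**Figure D3:**
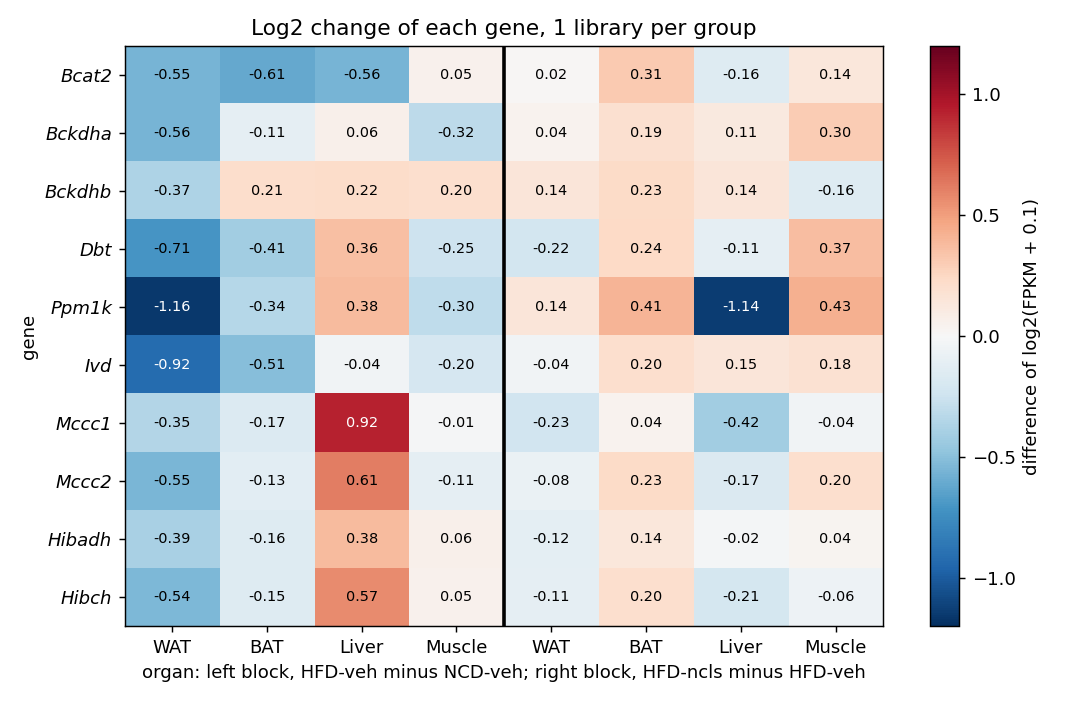
Log2 difference of each member on log2(FPKM + 0.1), for HFD-veh against NCD-veh and for HFD-ncls against HFD-veh, by organ. For the diet, the WAT values run from -1.16 to -0.35 and the liver values from -0.56 to 0.92.

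The WAT log2 difference minus that of another organ was taken for each member. Against BAT its median over the members was -0.40, with 9 of 10 members below 0, and over all genes its median was 0.05, with 45.2% of genes below 0. Against liver the member median was -0.98 with 9 of 10 below 0, and against muscle -0.52 with 10 of 10 below 0, while the medians over all genes were -0.02 and -0.0023, with 51.1% and 50.2% of genes below 0. Ppm1k was the lowest in each case, at -0.82, -1.54 and -0.86. Bcat2 was the exception against BAT and liver, at 0.06 and 0.0034. With 1 library per group these differences between organs were not tested.

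In WAT, markers of other cells differed as well. The summed level of 10 macrophage markers was 752, 1166 and 1451 FPKM across the groups, with none of the 10 at 0. In HFD-veh against NCD-veh mice, 9 of the 10 were higher, 5 of them past 2-fold, with log2 differences of 2.82 for Itgax, 1.99 for Cd68, 1.77 for Mpeg1, 1.60 for Ctss and 1.08 for Emr1. The 8 adipocyte markers summed to 19795, 18292 and 16664 FPKM, with a median log2 difference of -0.26 between HFD-veh and NCD-veh and 7 of 8 lower. The marker differences ran from -0.75 for adiponectin (Adipoq), the marker that passed 1.4-fold, to 0.35 for Cidec. Relative to the median of the adipocyte markers, all 10 members remained lower in HFD-veh WAT, from -0.09 for Mccc1 to -0.90 for Ppm1k, with a median of -0.29. On that scale 2 members passed 1.4-fold instead of 7 and 0 passed 2-fold. The markers differ among themselves, and member values relative to single markers were not computed. The share of all genes lower on that scale was not computed, so the counts on it have no background. The part of a different cell make-up in the WAT result was not tested beyond this.

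In BAT, markers of muscle differed most. The 10 muscle markers summed to 2060, 872 and 127 FPKM there, with all 10 lower in HFD-veh than NCD-veh mice (median log2 difference -1.08) and all 10 lower in HFD-ncls than HFD-veh mice (median -2.77). With the muscle share subtracted from each BAT library, the BAT member medians were -0.16 for HFD-veh against NCD-veh and 0.22 for HFD-ncls against HFD-veh. The BAT macrophage markers summed to 49.9, 72.5 and 44.4 FPKM, and their part in the BAT values was not tested. In muscle, 7 of 8 adipocyte markers were higher in HFD-veh than NCD-veh mice (median 0.73), and 5 of 8 were lower in HFD-ncls than HFD-veh mice (median -0.48), while their sum was 375, 416 and 455 FPKM. Their part in the muscle values was not tested.

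Ncls was compared with vehicle under the high-fat diet, and this comparison shares the HFD-veh libraries with the one above. In WAT, 6 members were lower and 4 higher in HFD-ncls than HFD-veh mice, where 41.5% of 12152 genes were lower by any amount. Among the members, 0 were past 1.4-fold, where 1.28% of genes were lower and 6.39% were higher by that fold. The WAT member median was -0.06, against 0.04 for all genes, and it became 0.04 when rescaled by the adipocyte markers. WAT member levels of HFD-ncls mice thus lay near those of HFD-veh mice, the widest gaps being -0.23 for Mccc1 and -0.22 for Dbt. In BAT all 10 members were higher in HFD-ncls than HFD-veh mice, where 46% of 10329 genes were higher by any amount, with a median of 0.22 against -0.02 for all genes. Relative to the adipocyte markers 9 of the 10 stayed higher in BAT, Mccc1 being the exception, with a median of 0.17. The share of all genes higher on that scale was not computed. The BAT differences ran from 0.04 for Mccc1 to 0.41 for Ppm1k, with 0 members past 1.4-fold, where 2.25% of genes were higher by that fold.

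In liver, 7 members were lower and 3 higher in HFD-ncls than HFD-veh mice, where 47.6% of 9956 genes were lower by any amount, with a median of -0.13 against 0.02 for all genes. Ppm1k, at -1.14, passed both folds, where 8.07% of genes were lower past 1.4-fold and 1.31% past 2-fold. The other members lay between -0.42 for Mccc1 and 0.15 for Ivd. In muscle, 7 members were higher and 3 lower, where 55.5% of 9694 genes were higher by any amount, with a median of 0.16 against 0.04 for all genes. In muscle 0 members passed 1.4-fold, where 5.48% of genes were lower and 8.46% were higher by that fold. The highest muscle values were 0.43 for Ppm1k, 0.37 for Dbt and 0.30 for Bckdha, and the Ppm1k value became 0.55 with the liver share subtracted from HFD-veh muscle.

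The HFD-ncls and NCD-veh WAT libraries were also set against each other, which reuses libraries of both comparisons above. All 10 members were lower in HFD-ncls WAT, 9 of them past 1.4-fold, where 10.4% of 12357 genes were lower by that fold, and their median log2 difference was -0.60 against 0.07 for all genes, of which 5300 were lower by any amount. Bckdhb, at -0.23, was the member within 1.4-fold.

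Other genes of the pathway were read from a list of 17 further enzymes and cofactor proteins. In WAT, 14 of the 17 were lower in HFD-veh than NCD-veh mice, where 47.3% of all genes were lower by any amount. Of these 14, 6 passed 1.4-fold, against 13% of all genes, and the list median was -0.29. Methylmalonate semialdehyde dehydrogenase (Aldh6a1), the last step of the valine branch before propionyl-CoA, measured 224, 115 and 101 FPKM in WAT. The short/branched-chain acyl-CoA dehydrogenase Acadsb, which acts on isoleucine, measured 72.9, 39.8 and 37.7 FPKM, and the propionyl-CoA carboxylase chain Pccb 82.9, 54.3 and 53.3 FPKM. Bcat1, the cytosolic aminotransferase, went the other way at a low level, 0.758, 2.14 and 1.61 FPKM. In liver, 14 of 16 enzymes that passed the FPKM filter were higher in HFD-veh than NCD-veh mice, where 54% of all genes were higher. Of these, 6 were past 1.4-fold, against 13.3% of all genes, and the list median was 0.42. In BAT and muscle, 0 of 16 passed 1.4-fold in either direction, with medians of -0.04 and -0.02. Past that fold, 860 of 10443 genes in BAT were lower and 975 higher. In muscle 528 of 9585 genes were lower and 742 higher.

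**Figure D4:**
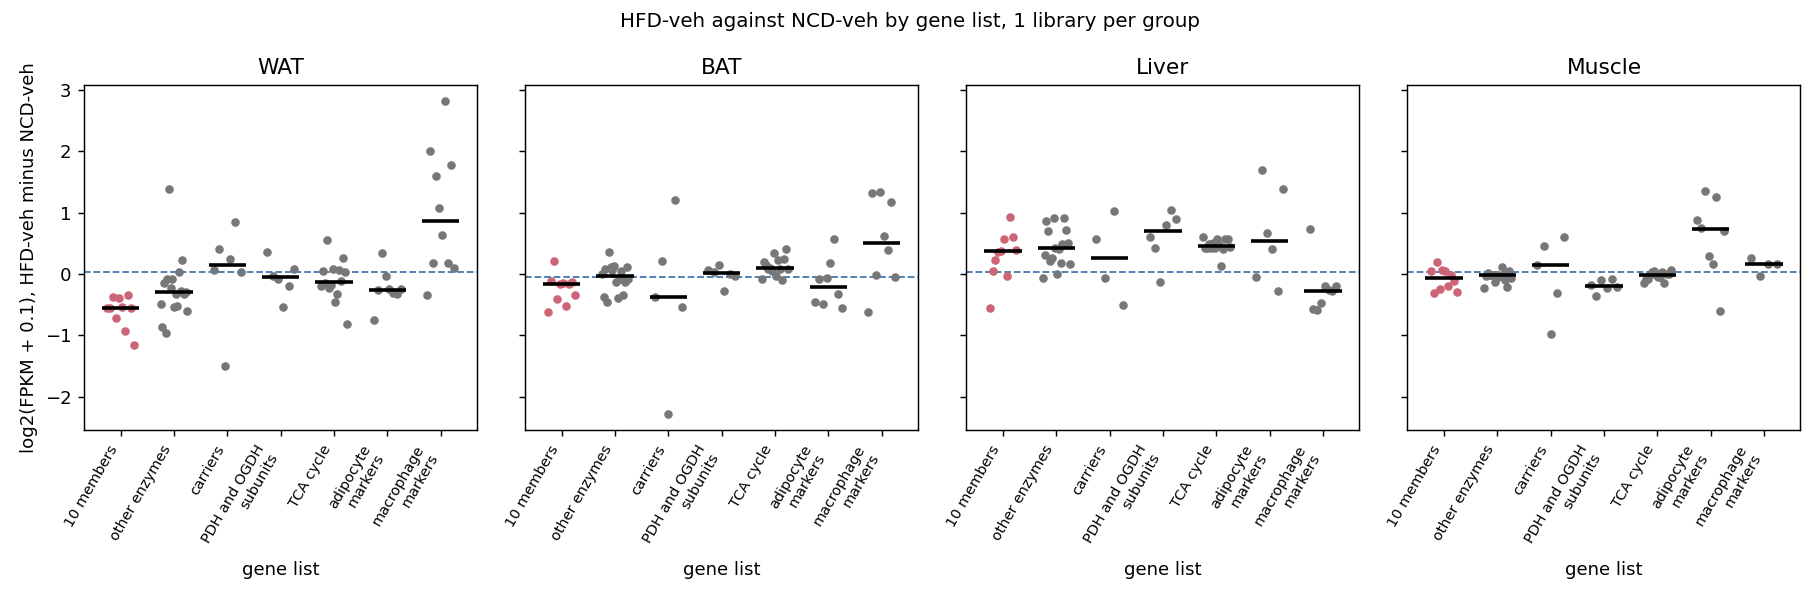
Log2 difference between HFD-veh and NCD-veh on log2(FPKM + 0.1) for single genes (points) and list medians (black bars) of the members, other BCAA enzymes, BCAA carriers, pyruvate and oxoglutarate dehydrogenase (PDH and OGDH) subunits, the tricarboxylic acid (TCA) cycle, adipocyte markers and macrophage markers, by organ, with the median of all genes dashed. In WAT the medians are -0.55 for the members, -0.29 for the other BCAA enzymes, -0.05 for PDH and OGDH and -0.13 for the TCA cycle.

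Enzymes next to the pathway were set beside it in the same libraries. Of 14 TCA cycle genes, 8 were lower in HFD-veh than NCD-veh WAT, where 47.3% of all genes were lower, and the list median was -0.13. Suclg2 (succinyl-CoA synthetase) was lowest at -0.82 and Idh3a (isocitrate dehydrogenase) highest at 0.55. The 6 genes of the pyruvate and oxoglutarate dehydrogenases had a WAT median of -0.05, with 4 lower and 2 higher. They ran from -0.53 for Pdha1 to 0.35 for Dlat. Of the 6, 1 (Pdha1) was lower past 1.4-fold, where 13% of all genes were lower by that fold. In liver all 14 TCA cycle genes were higher in HFD-veh than NCD-veh mice with a median of 0.45, where 54% of all genes were higher. The 6 dehydrogenase genes had a liver median of 0.70, with Pdhb highest at 1.05. The higher liver levels of the members therefore stood beside higher levels in both neighbouring lists. In BAT the medians of these lists were 0.09 and 0.01, and in muscle -0.01 and -0.20.

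Carriers of BCAAs and the regulator Klf15, a transcription factor known for its part in BCAA breakdown, were read separately. In WAT, 5 of the 6 carriers were higher in HFD-veh than NCD-veh mice, where 6434 of 12208 genes were higher by any amount. The list median was 0.15. Among the higher carriers, 1 passed 1.4-fold, where 1990 of the 12208 genes were higher by that fold. It was Slc7a5 (log2 difference 0.85), at low levels of 1.61, 2.98 and 3.25 FPKM. Its partner chain Slc3a2 had a log2 difference of 0.41. The carrier that was lower, Slc43a1, is a facilitative carrier of large neutral amino acids. Slc43a1 measured 14.5, 5.03 and 5.32 FPKM in WAT and 8.16, 1.60 and 3.14 FPKM in BAT. Muscle gave 13.8, 7.00 and 13.2 FPKM, and liver 1.91, 3.96 and 4.75 FPKM, so liver was the organ with a higher level under HFD-veh. Slc43a2, a related carrier, had a log2 difference of 1.21 between HFD-veh and NCD-veh BAT. Klf15 measured 31.7, 21.1 and 26.0 FPKM in WAT and 11.4, 3.89 and 3.86 FPKM in BAT. Its levels in liver (54.0, 56.9 and 54.7 FPKM) and muscle (13.7, 12.3 and 15.7 FPKM) varied less. Slc25a44, the mitochondrial BCAA carrier, had a WAT log2 difference of 0.06.

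The genes most like the members were ranked by Pearson's r with the member mean over the 12 libraries, after centring log2(FPKM + 1) on each organ's mean, among 8051 genes. Acadsb came first (r = 0.980), followed by Iqcb1 (0.969), Akap7 (0.965), Aldh6a1 (0.958) and Prkaa1 (0.953), the gene of a catalytic subunit of AMP-activated protein kinase. These correlations describe libraries that share organs and groups, and the WAT libraries spread most. Within the members, Dbt had the highest r with the mean of the other 9 (0.953), and Bcat2 (0.375) and Bckdhb (0.376) the lowest. Bcat2 and Bckdhb thus followed the other members least, though the r of Bcat2 includes its liver levels, which are uncertain.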

How the data were processed

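Total RNA was sequenced from each organ and group, 1 library each. The authors aligned reads with TopHat and quantified genes with Cufflinks on mm9, per the submitters' processing notes, and deposited FPKM values, 1 per symbol and library. Whether libraries were scaled to each other beyond FPKM is not given in the sources used here. The samples were grouped by their labels. Computations used Python 3.11.15, numpy 2.4.6, pandas 2.3.3 and matplotlib 3.10.9. FPKM values are not counts, so no count test was used. Log2 differences used a pseudocount of 0.1 FPKM, which understates those of low genes, and genes with at least 1 FPKM in at least 1 library compared. Symbols without a value in at least 1 library numbered 86. Depth was estimated from the steps of low values and annotated transcript lengths, and is approximate. No interval rests on it. Positions are from GENCODE vM1 on mm9. Members and lists were chosen with earlier results of these data known. All members were named. From other lists, genes past 2-fold and the 3 with the largest WAT difference were eligible, as were the 5 genes most like the members. Bckdk was named for its role, and Slc25a44 and Slc7a8 after their values were seen. Scripts were tested on simulated data. Alternatives covered the pseudocount, the FPKM filter, rescaling and subtraction of RNA from other organs.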

Additional observations from a re-analysis of the deposited data

Results flagged for a closer look

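Genes of the members and their neighbouring lists were picked out where they passed 1.4-fold in opposite directions in 2 organs under the same comparison. Each organ and group has 1 library, so none of these differences between organs was tested. For HFD-veh against NCD-veh, liver minus WAT was 1.16 on the log2 scale for Mccc2 (0.61 in liver and -0.55 in WAT) and 1.11 for Hibch (0.57 and -0.54). Aldh6a1 gave 1.66 for liver minus WAT (0.70 and -0.95), and Pdha1, a chain of pyruvate dehydrogenase, gave 1.33 (0.80 and -0.53). The amino acid carrier Slc7a8 gave 1.15 for muscle minus BAT (0.61 and -0.54), and Slc43a1 gave 3.30 for liver minus BAT (1.02 and -2.28). Slc43a2 gave 1.72 for BAT minus liver (1.21 and -0.51). For HFD-ncls against HFD-veh, Slc43a2 gave 1.23 for muscle minus BAT (0.61 and -0.62).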

How the results depend on the processing

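Single libraries limit every value here, and leaving out a library was not possible with 1 per organ and group. No paired analysis was possible because each organ and group has 1 library and the labels carry no replicate numbers. Rescaling by the adipocyte markers moved the WAT member median for HFD-veh against NCD-veh from -0.55 to -0.29 and the number of members lower past 1.4-fold from 7 to 2. Shares of all genes after that rescaling were not computed. The number lower past 2-fold was 1 as reported and 0 with a pseudocount of 1 FPKM, 0 with a minimum of 5 FPKM, which leaves out Ppm1k, and 0 with that rescaling. Of the alternative values for single genes, 448 stayed within 0.1 on the log2 scale and 16 did not, and none of these 16 changed sign. Among values near 0 in WAT for HFD-ncls against HFD-veh, rescaling by the adipocyte markers turned the member median from -0.06 to 0.04 and the Ivd and Mccc2 differences above 0, and rescaling by all genes turned those of Bcat2 and Bckdha below 0. The same rescaling in BAT, added after the data were seen, moved the BAT member median for HFD-veh against NCD-veh from -0.16 to 0.041. Leaving out Bcat2, whose liver value is uncertain, was also added then and moved no member median by over 0.1.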

Other observations

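Ratios between members were also read within each library. The ratio of the Bckdha level to the Dbt level was 2.32, 2.58 and 3.09 in WAT (NCD-veh, HFD-veh, HFD-ncls) and 9.58, 11.8 and 11.4 in BAT. The ratio of the Bcat2 level to the Bckdha level was 0.968, 0.970 and 0.955 in WAT, 0.257, 0.181 and 0.197 in BAT and 0.423, 0.547 and 0.487 in muscle. Bcat2 and Bckdha thus stood at nearly the same level in all 3 WAT libraries, although both were lower under the high-fat diet. Mccc2 was at 2.64, 2.11 and 2.51 times the Mccc1 level in liver and near it in WAT, at 1.04, 0.907 and 1.00 times.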
